A study of Mus musculus with 24 samples.

Results

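The genes described here build the membrane of the red cell. They are Slc4a1, Epb42, Ank1, Sptb, Rhag, Rhd, Kel and Ermap, 8 genes taken by symbol from the 25361 genes of the deposited table, and the rule that lists them uses no measured value, although it was written with earlier results of these data known. All 8 reached 1 TPM (reads per transcript length, scaled to the same total in every library) in all 24 libraries and entered every test. The libraries come from embryonic day 12.5 mouse liver, separated into CD146+ liver sinusoidal endothelial cells (LSECs) and the remaining non-EC liver cells, with 3 replicates of 4 genotypes in each fraction. Ctrl embryos lacked Cre and carried at least 1 floxed allele of each gene. Chd4-ECKO embryos were Chd4 fl/fl;Brg1 fl/+, Brg1-ECKO embryos were Brg1 fl/fl;Chd4 fl/+ and DKO embryos (Chd4/Brg1-ECDKO) were fl/fl for both, each with VE-cadherin-Cre. This Cre is driven by an endothelial promoter. The study states that some blood cells of E14.5 livers show its activity, so the non-EC cells may not be an undeleted population. CHD4 and BRG1 are ATP-dependent chromatin remodelers.

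A red cell keeps its shape through a network of spectrin beneath its membrane. Ankyrin ties that network to the anion exchanger band 3, and protein 4.2 strengthens the tie. The Rh proteins and their glycoprotein partner sit in the same membrane complexes, while other blood group proteins are anchored around them. At mid-gestation the fetal liver is the main site where definitive red cells form, and primitive red cells from the yolk sac still circulate. Primitive cells carry this skeleton as well, so these genes follow red-cell RNA in general. The embryonic globins Hbb-bh1, Hbb-y and Hba-x are typical of primitive cells. Which cells made their RNA in these libraries was not tested.

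The promoters of the genes are shown because erythroid genes are known to be controlled by GATA1, which binds DNA around the letters GATA. RefSeq windows of 300 bases (250 before to 50 after the start, GRCm38.p6) were matched by symbol for 6 of the 8 genes. The letters AGATAA or TGATAA, on either strand, were found in 5 of the 6 windows (Kel, Rhd, Ermap, Rhag and Epb42), against 18.6% of the 32851 windows of the table. AGATAA alone was in 11.2% and TGATAA in 9.05% of all windows. These 2 strings differ in their first letter and cannot lie at the same place. The string CACCC, part of the letters bound by KLF1, was in 5 of the 6 windows and in 57.5% of all windows. A match describes letters only, and neither binding nor regulation was tested. The last 100 bases before the start are printed 5′ to 3′ for the 4 genes whose match lay closest to it, with AGATAA or TGATAA on either strand in capitals.
Kel, chr6:41704326-41704425, minus strand: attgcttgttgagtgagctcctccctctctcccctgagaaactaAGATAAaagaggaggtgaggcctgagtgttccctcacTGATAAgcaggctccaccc
Rhd, chr4:134864436-134864535, plus strand: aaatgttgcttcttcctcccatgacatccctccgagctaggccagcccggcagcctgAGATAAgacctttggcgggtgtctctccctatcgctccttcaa
Ermap, chr4:119189996-119190095, minus strand: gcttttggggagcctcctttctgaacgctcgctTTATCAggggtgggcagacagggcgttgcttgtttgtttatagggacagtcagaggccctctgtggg
Rhag, chr17:40811049-40811148, plus strand: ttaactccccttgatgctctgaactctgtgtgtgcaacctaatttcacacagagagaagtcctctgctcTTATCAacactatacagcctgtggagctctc
In Kel the matches began 56 and 19 bases before the start, in Rhd 43 bases, in Ermap 67 bases and in Rhag 31 bases. In Epb42 the match lay 226 bases before the start.

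On the GRCm39 annotation, Slc4a1 (ENSMUSG00000006574) lies at chr11:102239650-102257029, Epb42 (ENSMUSG00000023216) at chr2:120848372-120867553, Ank1 (ENSMUSG00000031543) at chr8:23464860-23640513 and Sptb (ENSMUSG00000021061) at chr12:76627247-76757321. Rhag (ENSMUSG00000023926) lies at chr17:41122017-41151645, Rhd (ENSMUSG00000028825) at chr4:134591845-134623487, Kel (ENSMUSG00000029866) at chr6:41663264-41681273 and Ermap (ENSMUSG00000028644) at chr4:119032654-119047208. TPM were given per whole gene, exons and UTRs together.

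A level of 1 TPM was reached by 12746 to 13219 genes per LSEC library and 11450 to 11973 genes per non-EC library. The mitochondrial share of TPM was 13.9% to 31.5% in the former and 2.33% to 7.69% in the latter. Chd4 TPM were 168.5 to 252 in Chd4-ECKO and 246 to 284.5 in Ctrl LSECs, and Smarca4 (Brg1) TPM were 111 to 157 in Brg1-ECKO and 134 to 161 in Ctrl LSECs. In DKO LSECs Chd4 TPM were 242 to 256 and Smarca4 TPM 117 to 151. All these ranges overlapped Ctrl, and a value for the whole gene need not show the loss of floxed exons. By qRT-PCR on E12.5 LSECs isolated by LYVE1, the study reports lower Chd4 and Brg1 RNA in the mutants concerned. The 8 endothelial markers summed to 857 to 1790.3 TPM in LSEC and 25.8 to 59.7 TPM in non-EC libraries. LSEC Brg1-ECKO replicate 1 stood apart with 30334 TPM of 8 hepatoblast markers, against 3735 to 8764 in the other LSEC libraries.

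The first question was where the RNA of these genes was found. It was mostly in the non-EC cells. In Ctrl livers every one of the 8 genes was lower in LSECs, by 2.89 (Epb42) to 4.35 (Ermap) on the log2(TPM + 1) scale. In bulk RNA, fewer cells of a type and less RNA per cell cannot be told apart. The study lysed red blood cells before selecting CD146+ cells, and the part of that step in these levels was not tested.

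Ermap, an erythroid membrane protein of the Scianna blood group, was the most abundant of the genes in Ctrl non-EC cells. Its TPM were 303, 328 and 300.01 in replicates 1 to 3 there and 13.8, 21.6 and 9.63 in Ctrl LSECs, with no overlap. Slc4a1, which encodes band 3, had 248, 406 and 90.0 TPM in Ctrl non-EC cells and 23.1, 51.0 and 10.4 TPM in Ctrl LSECs. The fractions did not overlap for Slc4a1 either, but its Ctrl libraries lay much farther apart than those of Ermap. Mean TPM in Ctrl non-EC cells were 310.2 ± 15.3 (SD, n = 3) for Ermap, 248 ± 158 for Slc4a1, 144 ± 39.9 for Sptb (beta-spectrin), 114 ± 20.6 for Rhag (the Rh-associated glycoprotein), 106 ± 20.5 for Ank1 (ankyrin), 102 ± 32.9 for Rhd (the mouse Rh protein), 70.7 ± 12.9 for Kel (the Kell endopeptidase) and 29.0 ± 8.98 for Epb42 (protein 4.2). Neighbours in this order overlapped in their replicates down to Kel, and Epb42 lay below Kel in all 3 libraries.

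All 8 genes were called lower in Ctrl LSECs than in Ctrl non-EC cells, at an adjusted p of at most 0.000325 (limma, Benjamini-Hochberg over 13775 genes), where 13.3% of all tested genes were called lower. A gene was called when its adjusted p was under 0.05 and its log2 fold change over 1 in size, and fold changes on this scale understate those of low genes. The median of the 8 changes was -3.70, beside -0.09 over all tested genes. Ermap fell by 4.35 (SE 0.47) and Slc4a1 fell by 3.11 (SE 0.66). The Ctrl LSEC mean was 4.84% of the non-EC mean for Ermap, 6.21% for Ank1, 6.30% for Rhag, 7.07% for Kel, 7.43% for Sptb, 7.97% for Rhd, 10.8% for Epb42 and 11.4% for Slc4a1. The adult globins stood at 14.5% (Hba-a2) to 18.5% (Hbb-bt), with the limit that their copies are nearly identical and that reads may have been split between them. The embryonic globins stood at 32.3% (Hbb-bh1), 135.8% (Hba-x) and 354.1% (Hbb-y). Of these 3, 1 was called higher and 0 lower in Ctrl LSECs, where 19.4% of all tested genes were called higher (limma).

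Among 30 other genes of the red cell membrane and blood groups, 18 were called lower and 4 higher in Ctrl LSECs, where 19.4% of all tested genes were called higher. Kcnn4, the Gardos potassium channel, fell by 3.91. The 4 that were higher were Bcam, Aqp1, Ackr1 and Cd59a, of which Aqp1, a water channel that endothelium also makes, was higher by 2.39. All 8 erythroid regulators and receptors tested (Gata1, Klf1, Tal1, Nfe2, Gfi1b, Zfpm1, Epor and Tfrc) were called lower, and among them Klf1 fell by 3.80.

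**Figure D1:**
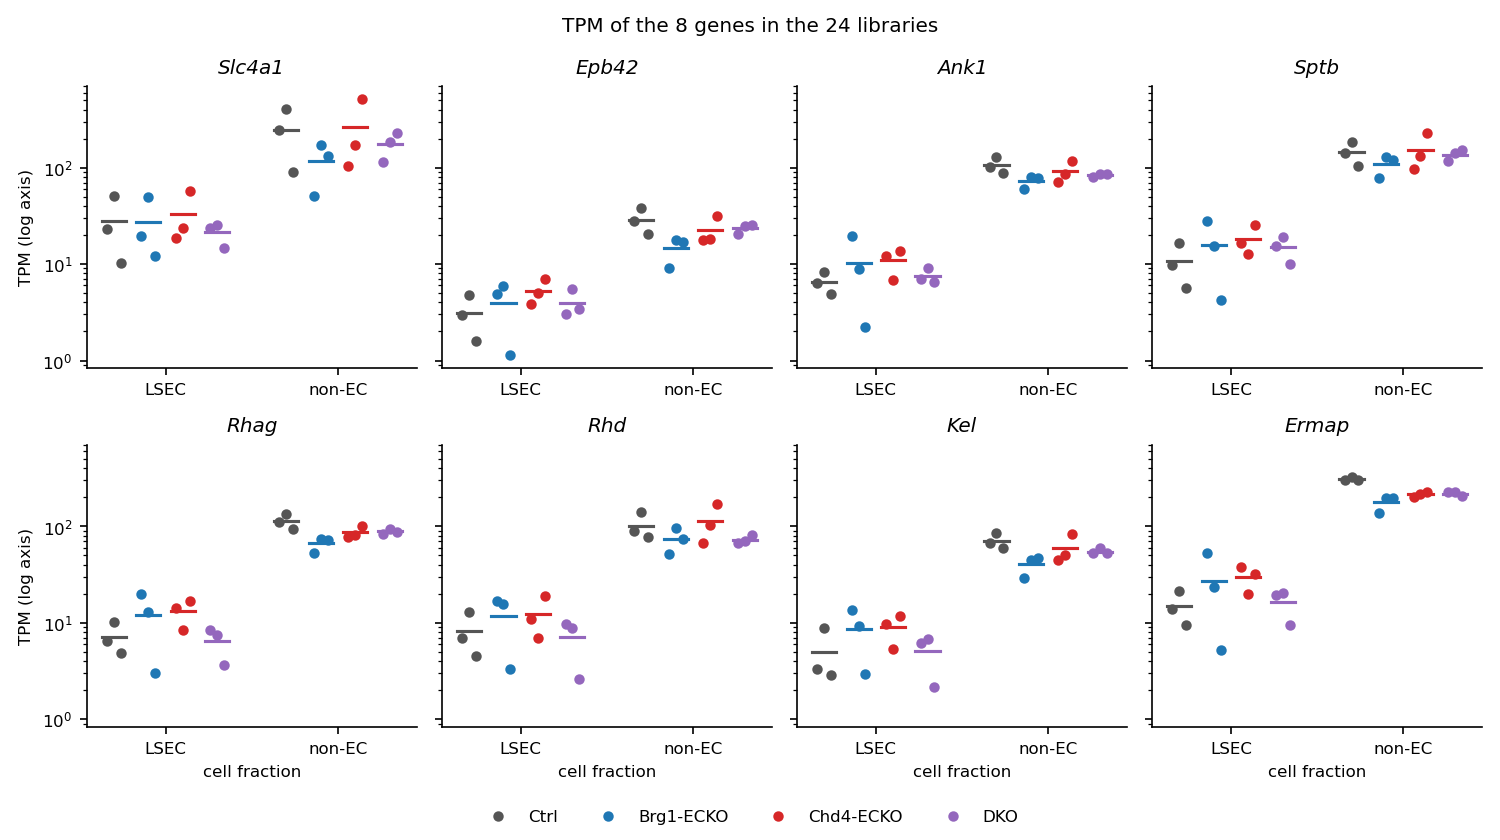
TPM of each gene on a log axis in LSEC and non-EC libraries, 1 point per library and a line at the mean of 3 replicates, coloured by genotype. Ermap is between 138 and 328 TPM in non-EC and between 5.22 and 52.6 TPM in LSEC libraries. The Ctrl points of Ermap in non-EC cells (300.01 to 328 TPM) lie above those of the mutants.

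The second question was whether loss of endothelial Chd4, of Brg1 or of both changed this RNA in the LSEC fraction. It did not pass the test for any of the 8 genes. In Chd4-ECKO LSECs Ermap had 38.3, 20.1 and 31.9 TPM, against 13.8, 21.6 and 9.63 TPM in Ctrl. Replicates 1 and 3 of the mutant lay above all Ctrl libraries and replicate 2 lay among them. Slc4a1 had 18.8, 23.4 and 57.4 TPM in Chd4-ECKO LSECs, within or just above the Ctrl range.

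No member was called in Chd4-ECKO LSECs, where 0.521% of 13444 tested genes were called (limma). None of the 8 had an unadjusted p under 0.05, and the lowest adjusted p was 0.995. All 8 estimates were above 0, from 0.33 (Slc4a1) to 0.98 (Ermap), with a median of 0.71 beside 0.01 over all genes. Of all tested genes 6932 were above 0. The 8 genes vary together between libraries, so their signs are not 8 separate measurements. The 95% interval for Ermap ran from -0.26 to 2.21, and that for Slc4a1 from -0.86 to 1.51, so both intervals include a log2 change of 1. Without Ctrl replicate 2 the estimate for Slc4a1 was 0.88, and without Ctrl replicate 3 it was -0.22.

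In Brg1-ECKO LSECs none of the 8 genes was called either, where 0.0149% of all tested genes were called, and none had an unadjusted p under 0.05 (lowest adjusted p = 0.709, limma). Here the replicates were far apart. Ermap had 52.6, 23.3 and 5.22 TPM, the highest and the lowest of all 12 LSEC libraries being replicates 1 and 3 of this group. Ank1 had 19.4, 8.90 and 2.24 TPM in the same order. Replicate 1 is the library with the high hepatoblast markers. Without it, the estimate for Ermap was -0.31 in place of 0.40 and that for Ank1 was -0.39 in place of 0.23.

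In DKO LSECs Ermap had 19.6, 20.3 and 9.53 TPM and Slc4a1 had 23.9, 25.6 and 14.5 TPM, inside the Ctrl range but for the 9.53 TPM of Ermap, just under the lowest Ctrl library. No member was called, where 0.565% of all tested genes were called, and none had an unadjusted p under 0.05 (lowest adjusted p = 0.646, limma). The estimates ran from -0.22 (Rhd) to 0.51 (Sptb), with a median of 0.08 beside 0.16 over all tested genes. Of the 30 other membrane genes 2 were called. Tmod1, which caps the actin filaments of the skeleton, was higher by 1.30 (adjusted p = 0.0469), and Aqp1 fell by 1.31 (adjusted p = 0.00631, limma).

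Between DKO and Chd4-ECKO LSECs all 8 estimates were below 0, from -0.92 (Rhag) to -0.26 (Sptb), with a median of -0.63 beside 0.13 over all genes. Of all tested genes 3603 were below 0. The Chd4-ECKO libraries are those compared with Ctrl above, and the 8 genes vary together. None of the 8 was called, where 0.0372% of all tested genes were called, and none had an unadjusted p under 0.05 (lowest adjusted p = 0.514, limma). Rhag had 14.1, 8.36 and 17.1 TPM in Chd4-ECKO and 8.47, 7.54 and 3.65 TPM in DKO LSECs, and the groups overlapped by 1 library each. The 95% interval for Rhag ran from -1.97 to 0.12.

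The third question was the same one for the non-EC cells, where most of the RNA of these 8 genes was found. Of the 8 genes, 3 fell in Brg1-ECKO and 1 in Chd4-ECKO livers at an adjusted p under 0.05, all by less than 1 on the log2 scale, and none rose. Ermap fell from 303, 328 and 300.01 TPM in Ctrl to 138, 199 and 198 TPM in Brg1-ECKO non-EC cells. Rhag fell from 111, 136 and 95.1 TPM to 53.5, 74.6 and 71.7 TPM. The groups did not overlap for either gene.

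In Brg1-ECKO non-EC cells none of the 8 genes passed the fold change threshold, where 1.37% of 12223 tested genes were called. With adjusted p under 0.05 alone, 3 of the 8 fell, where 2.76% of all tested genes fell by that rule. They were Ermap (-0.81, SE 0.13, adjusted p = 0.00300), Rhag (-0.76, SE 0.16, adjusted p = 0.0114) and Kel (-0.81, SE 0.23, adjusted p = 0.0463, limma). Kel had 68.0, 84.8 and 59.3 TPM in Ctrl and 29.1, 45.2 and 46.9 TPM in Brg1-ECKO. Epb42 and Ank1 also lay below every Ctrl library, which makes 5 of the 8 genes, where 18% of all tested genes did. Epb42 had 27.8, 38.5 and 20.6 TPM in Ctrl and 9.14, 17.6 and 17.0 TPM in Brg1-ECKO (-0.95, adjusted p = 0.0545, limma). Its adjusted p was 0.0465 on TPM rescaled without mitochondrial genes and 0.0437 without Ctrl replicate 3 (limma). With same-numbered libraries paired in a block it was 0.0437 as well (limma). For Ank1 the adjusted p was 0.0914 (limma).

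The other members did not pass. Slc4a1 had the largest estimate of the 8, -0.98, with 51.2, 169.8 and 133 TPM in Brg1-ECKO, and its interval ran from -2.44 to 0.47 (adjusted p = 0.350, limma). The 8 genes vary together between libraries, so the 3 calls are not 3 separate measurements. The median of the 8 estimates was -0.79, beside 0.02 over all genes.

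The calls did not rest equally on the libraries. For Ermap the adjusted p stayed between 0.00260 and 0.0176 in every alternative, each of the 6 libraries left out in turn included. For Rhag it was 0.0516 without Brg1-ECKO replicate 1 and 0.0506 without Ctrl replicate 2 (limma). For Kel it was between 0.0586 and 0.166 with any of the 6 libraries left out, 0.0707 with no filter on low values, 0.0552 without a variance trend and just over 0.05 with quantile normalization.

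In Chd4-ECKO non-EC cells Ermap had 204, 218 and 226 TPM, all below the 3 Ctrl libraries. It was the only one of the 8 genes to do so, where 11.6% of all tested genes did. None of the 8 genes was called with the fold change threshold, where 0.884% of tested genes were called, and 2 had an unadjusted p under 0.05, as did 4141 of the 12223 tested genes. With adjusted p alone Ermap fell (-0.52, SE 0.13, adjusted p = 0.0318, limma), 1 of 8 where 3.31% of all tested genes fell. That adjusted p ranged from 0.0202 to 0.0827 over the alternatives and was over 0.05 when any 1 of Ctrl replicates 1 to 3 or Chd4-ECKO replicates 2 and 3 was left out (0.0641 to 0.0827) and when just these groups were fitted (0.0589). Slc4a1 had 104, 169.8 and 517 TPM in Chd4-ECKO, the highest non-EC value of the gene among them, and an estimate of 0.01 with an interval from -1.45 to 1.46.

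In DKO non-EC cells Ermap had 228, 225 and 206 TPM, again below every Ctrl library, and Ank1 and Rhag did so as well. That is 3 of the 8 genes, where 8.01% of all tested genes did. None of the 8 was called, where 0.115% of tested genes were called, and none fell at an adjusted p under 0.05, where 0.0164% of tested genes did. Only Ermap had an unadjusted p under 0.05 (-0.50, SE 0.13, adjusted p = 0.0992, limma), and its adjusted p was 0.0470 when just these groups were fitted. Between DKO and Chd4-ECKO non-EC cells the estimates ran from -0.54 (Rhd) to 0.11 (Epb42). None was called, where 0% of tested genes were called, and none had an unadjusted p under 0.05 (lowest adjusted p = 0.310, limma). Without Chd4-ECKO replicate 1 the estimate for Rhd was -0.86 (adjusted p = 0.0463, limma), in a fit that called 861 of all tested genes in place of 0. The comparisons with Ctrl share the same 3 Ctrl libraries.

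**Figure D2:**
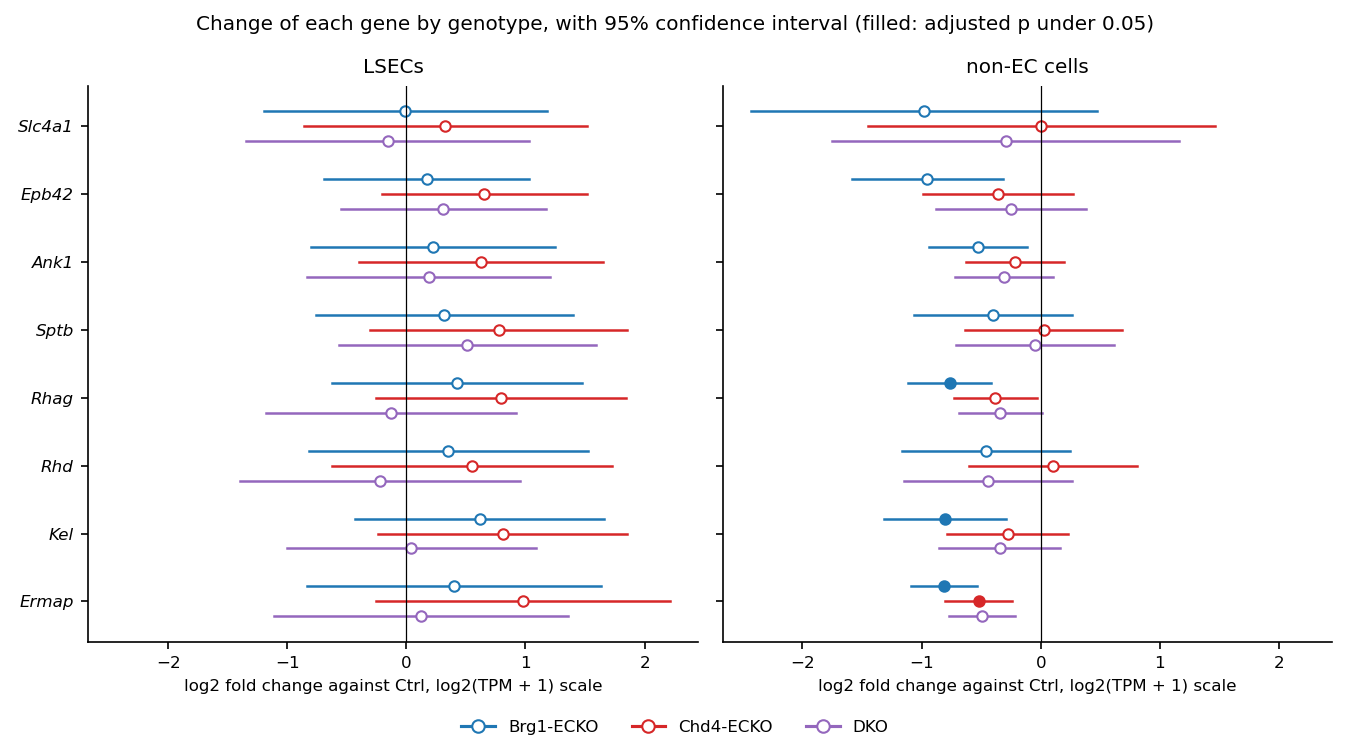
Log2 fold change of each gene against Ctrl on the log2(TPM + 1) scale (x axis) with its 95% confidence interval, for LSECs and non-EC cells, coloured by genotype. Filled points passed an adjusted p of 0.05. These are Ermap, Rhag and Kel in Brg1-ECKO and Ermap in Chd4-ECKO non-EC cells, all between -0.81 and -0.52.

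RNA of hepatoblasts, the precursors of hepatocytes, moved with these results. The summed TPM of 8 hepatoblast markers (Afp, Alb, Ttr, Apoa1, Apoa2, Hnf4a, Dlk1 and Trf, all detected) were 18622 to 20824 in Ctrl non-EC libraries. They were 27823 to 40826 in Brg1-ECKO, 28971 to 38645 in Chd4-ECKO and 24099 to 32153 in DKO non-EC libraries, with no overlap with Ctrl. The summed TPM of the 8 membrane genes were 836 to 1445 in Ctrl, 471 to 812 in Brg1-ECKO, 684 to 1475 in Chd4-ECKO and 764 to 922 in DKO. TPM are shares of a fixed total, so more RNA of one kind lowers the rest. The part of this in the lower values of Ermap, Rhag and Kel was not tested. Macrophage markers summed to 98.1 to 220.3 TPM in Ctrl and 203 to 277 TPM in Brg1-ECKO non-EC libraries, and megakaryocyte markers to 904 to 1423 and 889 to 1832 TPM. Stellate and mesenchymal markers summed to 21.6 to 48.5 TPM in Ctrl and 38.0 to 61.3 TPM in Brg1-ECKO, and progenitor markers to 283 to 384 and 250.3 to 326 TPM. Each of these 4 lists overlapped between Ctrl and Brg1-ECKO. The mitochondrial share of TPM did not overlap, with 5.24%, 3.04% and 5.505% in Brg1-ECKO and 7.69%, 6.17% and 7.51% in Ctrl non-EC libraries. Beyond the rescaling without mitochondrial genes, its part in the lower values was not tested. In Chd4-ECKO non-EC libraries the 6 progenitor markers summed to 198 to 282 TPM, just below the lowest Ctrl library (283 TPM). The macrophage (177 to 301 TPM), megakaryocyte (759 to 1410.1 TPM) and stellate and mesenchymal markers (41.2 to 82.2 TPM) overlapped Ctrl there. The part of the progenitor markers in the lower Ermap of Chd4-ECKO was not tested.

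**Figure D3:**
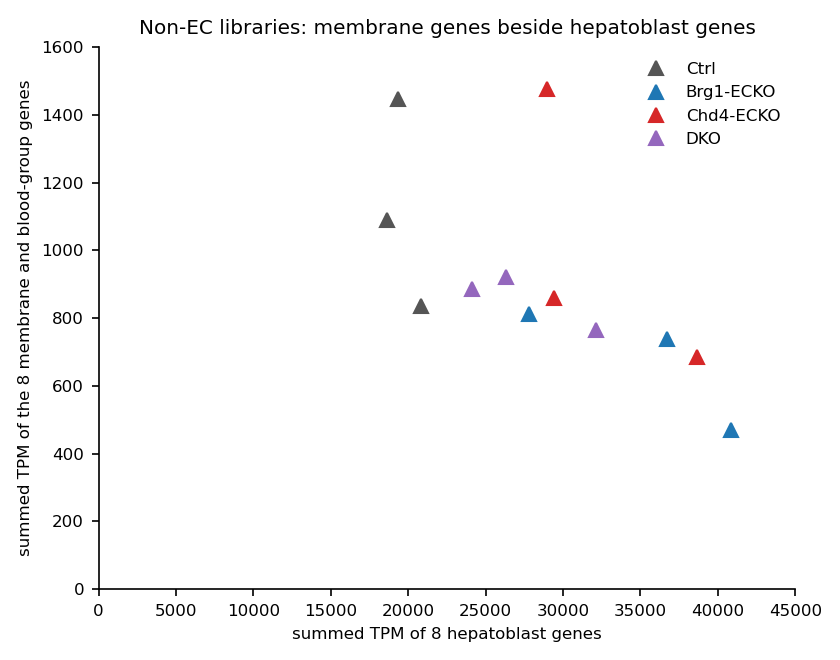
Summed TPM of the 8 membrane and blood-group genes (y axis) against summed TPM of 8 hepatoblast genes (x axis) in the 12 non-EC libraries, coloured by genotype. The 3 Ctrl libraries lie farthest to the left (18622 to 20824 TPM), and Brg1-ECKO replicate 1 has the lowest sum of membrane genes, 471 TPM.

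Of the 30 other genes of the membrane, 1 was called lower in Brg1-ECKO and 0 in Chd4-ECKO non-EC cells. Of all 12223 tested genes, 22 and 55 were called lower there. By adjusted p alone 3 fell and 1 rose in Brg1-ECKO, and 2 fell and 1 rose in Chd4-ECKO, and of these only Xk and Bcam are named here. By the same rule 2.76% of all tested genes fell and 8.91% rose in Brg1-ECKO, and 3.31% fell and 6.17% rose in Chd4-ECKO. Xk, the partner of Kel, fell and Bcam rose at an adjusted p under 0.05 in both single mutants, each by less than 1 on the log2 scale. In Brg1-ECKO non-EC cells the estimates were -0.78 for Xk (adjusted p = 0.00865) and 0.90 for Bcam (adjusted p = 0.0142, limma). In Chd4-ECKO non-EC cells, where 9 of the 30 and 4141 of all 12223 tested genes had an unadjusted p under 0.05, the estimates were -0.73 for Xk (adjusted p = 0.0190) and 0.95 for Bcam (adjusted p = 0.0185, limma). Of the 8 regulators and receptors, Tfrc, the transferrin receptor that brings iron to erythroblasts, was the one called. Its TPM were 491, 527 and 442 in Ctrl, 374, 168 and 114 in Chd4-ECKO (-1.33, adjusted p = 0.0306) and 221, 186 and 250.3 in Brg1-ECKO (-1.16, adjusted p = 0.0382, limma). Gata1 and Klf1 did not pass in either genotype, with estimates of -0.03 and 0.01 in Chd4-ECKO and of -0.25 and -0.36 in Brg1-ECKO.

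Whether the Chd4-ECKO effect differed between the fractions was tested in 1 model of all 24 libraries. All 8 estimates of LSEC minus non-EC were above 0, from 0.32 (Slc4a1) to 1.5002 (Ermap), with a median of 0.93 beside 0.03 over all genes. No gene of the 8 was called, where 0.69% of 13775 tested genes were called. Of the 8 only Ermap had an unadjusted p under 0.05 (adjusted p = 0.234, limma), as did 2627 of the 13775 tested genes. The 95% interval for Ermap ran from 0.10 to 2.90. Tests of the Brg1-ECKO and DKO effects, added after the values were seen, called none of the 8 either, with the lowest adjusted p 0.228 for Kel in Brg1-ECKO and 0.803 for Epb42 in DKO (limma), and with 2 and 0 of the 8 at an unadjusted p under 0.05. All 8 estimates were above 0 in these as well, with medians of 1.05 in Brg1-ECKO and 0.44 in DKO, beside 0.05 and 0.12 over all genes. Of all 13775 tested genes, 7325 were above 0 for Chd4-ECKO, 7616 for Brg1-ECKO and 9072 for DKO. The differences all use the same Ctrl libraries and the 8 genes vary together, so their signs are not separate measurements. The Brg1-ECKO estimates include LSEC replicate 1, the library with the high hepatoblast markers, and were not refitted without it. Over all tested genes 0.639% and 0.0581% were called, and 2459 and 1043 of 13775 had an unadjusted p under 0.05.

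The fourth question was how these genes stand beside the embryonic globins. The 3 embryonic globins rose in Chd4-ECKO cells of both fractions while the 8 membrane genes were not called higher in any comparison. Hbb-bh1, the embryonic beta-like globin, had 102, 789 and 328 TPM in Chd4-ECKO LSECs against 2.67, 3.84 and 1.85 TPM in Ctrl (log2 change 6.34, adjusted p = 2.94e-05, limma). In DKO LSECs it had 129.6, 135 and 146 TPM (5.22, adjusted p = 0.000451). Hbb-y and Hba-x were called higher in the same comparisons, by 3.44 and 4.46 in Chd4-ECKO LSECs and by 2.30 and 3.11 in DKO LSECs. In non-EC cells Hbb-bh1, Hbb-y and Hba-x were called higher in Chd4-ECKO, by 3.04, 4.01 and 3.63, and in DKO none of the 3 was called, with 3 of 3 at an unadjusted p under 0.05 (limma). In Brg1-ECKO none of the 3 was called in either fraction, with 1 of the 3 at an unadjusted p under 0.05 in each.

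The summed TPM of the 3 embryonic globins divided by that of the 8 membrane genes was 0.405, 0.131 and 0.666 in Ctrl LSECs. It was 2.14, 18.1 and 3.93 in Chd4-ECKO, 3.18, 2.54 and 6.21 in DKO and 0.272, 0.357 and 1.44 in Brg1-ECKO LSECs. Every Chd4-ECKO and DKO library lay above every Ctrl and Brg1-ECKO library, and those last groups overlapped. In non-EC cells the ratio was 0.0275, 0.0132 and 0.0116 in Ctrl, 0.111, 0.574 and 0.237 in Chd4-ECKO, 0.0708, 0.0891 and 0.109 in DKO and 0.0645, 0.0283 and 0.0163 in Brg1-ECKO. Again every Chd4-ECKO and DKO library lay above every Ctrl and Brg1-ECKO library, and all 3 Ctrl ratios were below those of the Ctrl LSECs. On the log2 scale the mean ratio exceeded Ctrl by 4.02 in Chd4-ECKO and 3.49 in DKO LSECs, and by 3.94 in Chd4-ECKO and 2.45 in DKO non-EC cells. In Brg1-ECKO it exceeded Ctrl by 0.66 in LSECs (-0.07 to 1.17 with 1 library left out) and by 0.94 in non-EC cells (0.41 to 1.41). With 1 library left out, the Chd4-ECKO and DKO values ranged from 3.14 (without Chd4-ECKO replicate 2) to 4.68 (without Chd4-ECKO replicate 1) and from 2.83 (without Ctrl replicate 2) to 4.001 (without Ctrl replicate 3) in LSECs. In non-EC cells they ranged from 3.33 (without Chd4-ECKO replicate 2) to 4.51 (without Chd4-ECKO replicate 1) and from 2.21 (without Ctrl replicate 3) to 2.83 (without Ctrl replicate 1). The ratio of the 4 adult globins to the 8 genes was 9.30, 13.1 and 10.6 in Ctrl and 4.395, 10.5 and 9.13 in Chd4-ECKO LSECs, which overlapped. It was 5.87, 8.13 and 8.57 in DKO LSECs, below every Ctrl library, and 3.39, 13.7 and 8.95 in Brg1-ECKO LSECs. In non-EC cells it was 2.46 to 6.58 in Ctrl, 3.92 to 7.29 in Chd4-ECKO, 2.81 to 5.33 in DKO and 2.99 to 4.39 in Brg1-ECKO, with overlap of all groups.

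**Figure D4:**
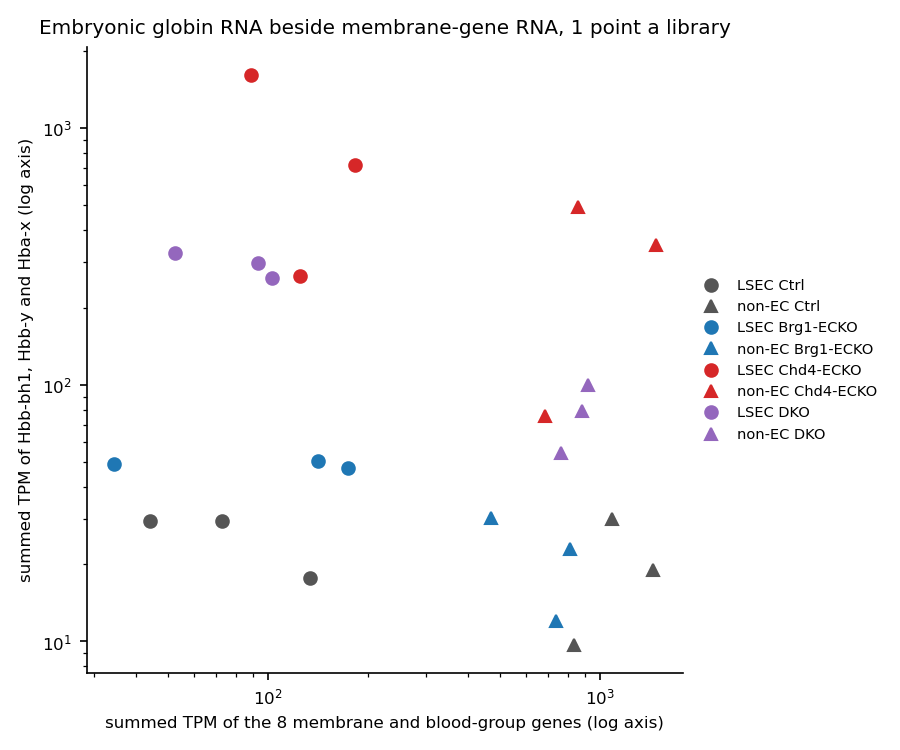
Summed TPM of the 3 embryonic globins (y axis) against summed TPM of the 8 membrane and blood-group genes (x axis), both on log axes, 1 point a library, circles for LSECs and triangles for non-EC cells. Chd4-ECKO and DKO points stand above the Ctrl points of their fraction, as do those of Brg1-ECKO LSECs by less (47.6 to 50.5 against 17.6 to 29.5 TPM), while along the x axis every genotype overlaps Ctrl in its fraction except Brg1-ECKO in non-EC cells (471 to 812 against 836 to 1445 TPM).

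Between libraries the 8 genes moved together. Across the 12 non-EC libraries the Pearson correlation of their log2(TPM + 1) ran from 0.513 to 0.984 over 28 pairs of genes (median 0.880), and across the 12 LSEC libraries from 0.497 to 0.968 (median 0.844). These libraries share genotypes and the scaling of TPM, and the values are a description. In non-EC cells Slc4a1 and Sptb were the closest (0.98), while Ermap was the farthest from Rhd, Sptb and Slc4a1 (0.51, 0.52 and 0.54). The genes also differed in how far they swung. Between the lowest and the highest non-EC library Slc4a1 changed 10.1-fold, Epb42 4.21-fold, Rhd 3.28-fold, Sptb 2.93-fold, Kel 2.91-fold, Rhag 2.54-fold, Ermap 2.37-fold and Ank1 2.15-fold. The lowest value of each of the 8 genes was in Brg1-ECKO replicate 1. In LSECs Slc4a1 had the narrowest span of the 8, 5.54-fold, and Ermap the widest, 10.1-fold.

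Slc4a1 followed the adult globin Hba-a1 across the non-EC libraries (r = 0.979), and Ermap did so less closely (0.594). With Afp, the fetal liver protein of hepatoblasts, the correlations were negative, from -0.87 for Ermap to -0.52 for Rhd. With Hbb-bh1 they ran from 0.129 (Ermap) to 0.590 (Sptb). In the LSEC libraries the correlations with Afp ran from -0.0094 (Slc4a1) to 0.474 (Kel). All are over 12 libraries that share 4 genotypes.

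**Figure D5:**
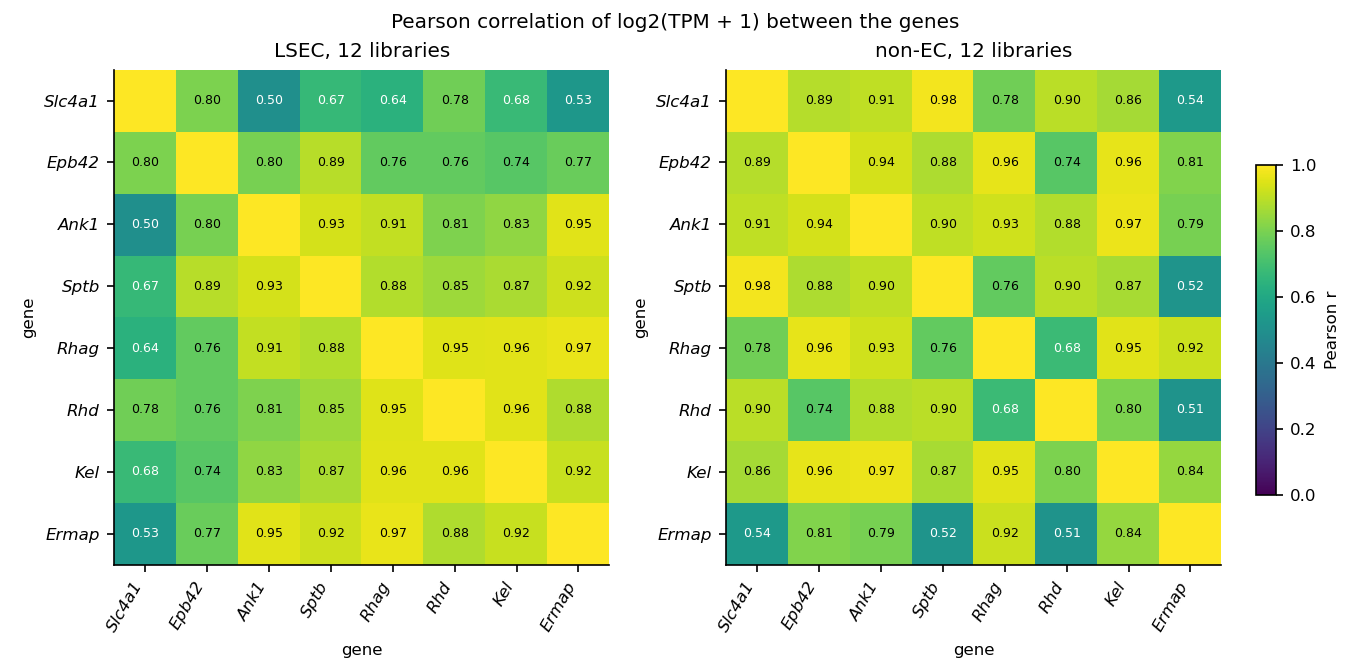
Pearson correlation of log2(TPM + 1) between each pair of the 8 genes, over 12 LSEC libraries (left) and 12 non-EC libraries (right), with colour and number giving r. Slc4a1 has the lowest values in LSECs (0.50 with Ank1), and Ermap in non-EC cells (0.51 with Rhd).

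Among the 10 genes whose pattern was most like the mean of the 8 (each scaled over the libraries) were, in the 12 LSEC libraries, Tspan33, Add2, Pklr, Klf1, Cpox, Fech, Cldn13 and Hemgn, with r from 0.979 to 0.931. In the 12 non-EC libraries the 10 were Uros, Slc43a3, Lrrc56, Abcb10, Ppip5k1, Cd24a, Fech, Car2, Ssbp2 and Hemgn, with r from 0.977 to 0.955. Fech, Cpox and Uros encode enzymes of heme synthesis. Same-numbered LSEC and non-EC libraries were compared as well, although it is not stated that equal numbers stand for 1 embryo in both fractions. Over the 12 pairs Slc4a1 had the highest correlation (r = 0.644, p = 0.0235, Spearman's rho 0.629, p = 0.0326, permutation tests), with an adjusted p of 0.188 over the 8 genes and r = 0.267 without the 2 libraries farthest from the median. The permutations moved libraries freely across the 4 genotypes, so these p-values also take in differences between genotypes. The other 7 genes had r from -0.38 (Ermap) to 0.268 (Rhd), and the lowest adjusted p among them was 0.705 (permutation test).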

How the data were processed

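RNA of 24 libraries, 12 of each fraction, was analysed. The authors digested E12.5 livers with transcription inhibitors, removed red blood cells by lysis, selected CD146+ cells, aligned the reads to GRCm39/mm39 (also named in the submitters' processing notes) with CLC Genomics Workbench, and TPM is the unit of the table deposited by the authors. Each library sums to the same total, so the depth of each library is unknown and no counting error is given (the study states only a nominal number of reads). The 8 columns of the authors' mean TPM were not used, and 0 columns lay outside the design.

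Genes reaching 1 TPM in 3 or more libraries of a fit were tested with limma 3.58.1 (R 4.3.3) on log2(TPM + 1), with moderated variances, a trend, a mean per group and Benjamini-Hochberg adjustment over all tested genes, two-sided. Within a fraction 12 libraries entered, and between fractions all 24. The labels give replicate numbers, and the study's legends describe replicates as separate embryos. All libraries were treated as 1 batch, and whether they were prepared together is not stated. Deviations of same-numbered libraries correlated over 0.1 in every pair for LSEC Chd4-ECKO against Ctrl (0.112 to 0.390), LSEC DKO against Chd4-ECKO (0.124 to 0.231) and Ctrl LSECs against non-EC cells (0.286 to 0.411), and not in the other 6 comparisons. That pairing comes from the data. On simulated LSEC Chd4-ECKO data of 13317 genes, 194 of 200 genes changed 2 log2 units were recovered, with 10 others called. Of 200 genes changed 1 unit, among 13321 genes, 139 were recovered, with 11 others called. In the measured comparison the standard errors of the genes described here ran from 0.40 (Epb42) to 0.57 (Ermap). Ermap, with an estimate of 0.98, had an adjusted p of 0.995 there (limma). Recovery at the spread of these genes was not tested, so the simulated counts do not give the power for them.

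The 8 genes and the lists (other membrane genes, globins, erythroid regulators, cell markers) were chosen with earlier results of these data known. Of the other membrane genes called, examples are named, and Xk and Bcam are named for an adjusted p under 0.05 alone. Regulators are named where called, and genes of like pattern by the highest Pearson correlation. Gata1 and Klf1 are given as the factors whose letters were searched. Some genes of these lists are not reported here. Figures were drawn with matplotlib 3.10.9.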

Additional observations from a re-analysis of the deposited data

Results flagged for a closer look

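No gene of the 8 differed in its Chd4-ECKO effect between fractions at an adjusted p under 0.05, but 2 genes of the related lists did. Tfrc was higher by 0.64 in Chd4-ECKO LSECs and fell by 1.33 in Chd4-ECKO non-EC cells, a difference of 1.96 (SE 0.43, adjusted p = 0.0317, limma). Cd44, which carries the Indian blood group and is also made by many other cells, was higher by 0.95 in LSECs (16.2, 10.7 and 18.6 TPM in Ctrl, 23.7, 26.1 and 41.1 TPM in Chd4-ECKO) and lower by 0.21 (log2 change -0.21) in non-EC cells, a difference of 1.15 (SE 0.27, adjusted p = 0.0460, limma). In Chd4-ECKO LSECs the 8 macrophage markers summed to 686 to 1107 TPM, against 493 to 629 TPM in Ctrl, with 7 of 8 at an unadjusted p under 0.05 and 1 called (limma), beside 872 and 70 of all 13444 tested genes. The hepatoblast markers were higher in the Chd4-ECKO non-EC libraries than in Ctrl. The part of either list in these differences was not tested. Groups had 3 libraries each, too few for a test of single libraries.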

How the results depend on the processing

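The alternatives were 0.1 TPM as pseudocount, all genes kept, only genes averaging 5 TPM or more (which left no value for Epb42 in LSECs), quantile normalization, TPM rescaled without globin or mitochondrial genes, a variance without trend, a replicate block, calls by adjusted p alone, a fit of just the compared groups and each library omitted in turn. The lower level of all 8 genes in Ctrl LSECs was called in every one of these. No gene of the 8 was called in any LSEC comparison under any of them. The same held for the DKO comparisons of non-EC cells and for the difference of the Chd4-ECKO effect between fractions. The differences of the Brg1-ECKO and DKO effects were fitted in the main form and with the replicate block only. With that block the lowest adjusted p was 0.166 for Kel in Brg1-ECKO and 0.669 for Epb42 in DKO (limma). Without the fold change threshold 1 gene was called in Chd4-ECKO and 3 in Brg1-ECKO non-EC cells, and with a library left out 0 to 1 in the latter (Epb42 without Ctrl replicate 3). With the replicate block, which pairs same-numbered libraries, the 8 genes were called 8 times in Ctrl LSECs against non-EC cells and 0 times elsewhere, and for Epb42 in Brg1-ECKO non-EC cells the adjusted p was 0.0437 (limma). Estimates near 0 changed sign with libraries left out, and ranged in Chd4-ECKO against Ctrl in LSECs over Slc4a1 -0.22 to 0.88, and in Brg1-ECKO against Ctrl in LSECs over Slc4a1 -0.55 to 0.54, Epb42 -0.15 to 0.70, Sptb -0.22 to 1.00, Ank1 -0.39 to 0.94, Rhag -0.075 to 1.12, Rhd -0.0011 to 1.01, Ermap -0.31 to 1.24, and in DKO against Ctrl in LSECs over Kel -0.21 to 0.47, Slc4a1 -0.70 to 0.39, Rhag -0.34 to 0.19, Rhd -0.54 to 0.28, Ermap -0.14 to 0.45, and in Chd4-ECKO against Ctrl in non-EC cells over Slc4a1 -0.64 to 0.51, Sptb -0.31 to 0.30, Rhd -0.24 to 0.42, and in DKO against Ctrl in non-EC cells over Slc4a1 -0.90 to 0.18, Sptb -0.26 to 0.15, and in DKO against Chd4-ECKO in non-EC cells over Epb42 -0.026 to 0.36, Rhag -0.032 to 0.16, Ermap -0.015 to 0.071, Slc4a1 -0.80 to 0.35, Ank1 -0.25 to 0.10, Sptb -0.35 to 0.26, Kel -0.24 to 0.19, and in the Chd4-ECKO effect between fractions over Slc4a1 -0.22 to 0.97. With quantile normalization Ank1 was -0.016 in DKO against Ctrl in LSECs, Kel was -0.14 in DKO against Ctrl in LSECs, Ermap was -0.057 in DKO against Ctrl in LSECs, Slc4a1 was -0.0064 in Chd4-ECKO against Ctrl in non-EC cells. With TPM rescaled without mitochondrial genes Kel was -0.016 in DKO against Ctrl in LSECs, Slc4a1 was -0.036 in Chd4-ECKO against Ctrl in non-EC cells, Sptb was -0.018 in Chd4-ECKO against Ctrl in non-EC cells. The number of all tested genes called, with its range over the alternatives, was 70 (28 to 147) for Chd4-ECKO against Ctrl in LSECs, 2 (0 to 6) for Brg1-ECKO against Ctrl in LSECs, 76 (24 to 133) for DKO against Ctrl in LSECs, 5 (0 to 52) for DKO against Chd4-ECKO in LSECs, 108 (31 to 1159) for Chd4-ECKO against Ctrl in non-EC cells, 167 (80 to 1426) for Brg1-ECKO against Ctrl in non-EC cells, 14 (0 to 71) for DKO against Ctrl in non-EC cells, 0 (0 to 861) for DKO against Chd4-ECKO in non-EC cells, 4498 (3222 to 9241) for Ctrl LSECs against non-EC cells, 95 (15 to 1028) for the Chd4-ECKO effect between fractions. The cause of these shifts was not tested. The depth of each library is unknown, so counting error at 1 to 10 TPM in LSECs could not be set beside the spread of replicates.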
